A study of Mus musculus with 4 samples.

Results

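The 9 genes described here encode secreted inflammatory signals of bone marrow stromal cells: the CXC chemokines Cxcl9, Cxcl10, Cxcl1 and Cxcl14, the CC chemokines Ccl2, Ccl7, Ccl11 and Ccl19, and the cytokine Il6. They were found by symbol among the 31053 genes of the deposited count tables. Cxcl9 and Cxcl10 belong to the list because they were among the largest falls in the stromal library of STAT5 knockout mice, so the members were chosen by values of the contrast between the stromal libraries, which is given here as a description with no test. The symbol Ccl19 is carried by 2 identifiers. The values are those of ENSMUSG00000071005, and the other identifier held 0 UMIs (unique molecular identifiers, each counting 1 captured transcript) in the kept cells of all libraries.

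Single cells were profiled from mouse bone marrow by droplet sequencing in 4 libraries, 1 per group. The groups called MSC are stromal cells of tibia and femur from mice 6 to 8 weeks old, sorted for Sca-1 and CD140a on the surface, no CD45 or CD71, and little or no Ter119. The groups called KLS are lineage-negative, c-Kit-positive, Sca-1-positive blood progenitors from mice 8 to 12 weeks old. Mice of the STAT5 KO groups had the genotype Vav1-Cre/+STAT5abfl/fl, in which the Cre transgene deletes floxed Stat5a and Stat5b, and control mice were Vav1-Cre/+STAT5ab+/+, so every group carried the transgene. The Vav1 promoter drives Cre in blood cells, and the sorted stromal cells are not its usual target. In kept MSC cells Stat5a was at 40.4 (control) and 55.4 (STAT5 KO) CPM, counts per 1000000 UMIs, and Stat5b was at 51.2 and 46.3 CPM. The labels say neither how many mice gave the MSC libraries nor which cells came from which mouse, and with 1 library a group no difference below has a replicate check.

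The kept cells numbered 579 and 378 (MSC control first, here and wherever a pair of values is given), with 1758763 and 1210013 UMIs and medians of 2744 and 2496 UMIs per cell. The MSC libraries shared 42 cell barcodes. The 31 control and 11 STAT5 KO barcodes with more UMIs in the other MSC library were left out. Of the sort markers, Pdgfra, which encodes CD140a, was at 286.0 and 235.5 CPM, and Ly6a, which encodes Sca-1, at 602.1 and 409.1 CPM. Ptprc, which encodes CD45, held 7 UMIs in each MSC library. Blood cells were nevertheless present, since 126 control and 97 STAT5 KO cells formed an erythroid-like cluster and 16 and 10 a leukocyte-like one.

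Chemokines are small secreted proteins that bind to matrix and guide cells bearing matching receptors. CXCL9 and CXCL10 are induced by interferons and act on CXCR3 of activated T cells and natural killer cells. CXCL1 draws neutrophils through CXCR2, CCL2 and CCL7 draw monocytes through CCR2, CCL11 draws eosinophils through CCR3, and CCL19 draws dendritic cells and lymphocytes through CCR7. CXCL14 is a homeostatic chemokine made by many epithelial and stromal cells. Interleukin-6 signals through IL6RA and the shared chain gp130, and NF-kB induces it together with CXCL1 and CCL2. In marrow, reticular cells rich in CXCL12 hold stem cells in their niche, and their release of CCL2 lets monocytes leave for the blood.

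Cxcl9 and Cxcl10 are neighbours on chromosome 5 (GENCODE M21, GRCm38, the build also named in the submitters' processing notes). Cxcl9 (ENSMUSG00000029417) lies at 92321347 to 92328079 and Cxcl10 (ENSMUSG00000034855) at 92346638 to 92348889, both on the minus strand and 18.6 kb apart. Cxcl1 (ENSMUSG00000029380) lies on the same chromosome at 90891241 to 90893115 on the plus strand. Ccl2 (82035571 to 82037453), Ccl7 (82045712 to 82047525) and Ccl11 (82057823 to 82062955) stand in a row on the plus strand of chromosome 11, 18.7 Mb from the floxed Stat5b gene. Ccl19 lies on chromosome 4 (42754525 to 42756577), Cxcl14 on chromosome 13 (56288643 to 56296551) and Il6 on chromosome 5 (30013114 to 30019981).

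The 250 bases upstream of the start site are shown for 3 CXC genes, because Cxcl9 and Cxcl10 stood furthest apart between the stromal libraries and Cxcl1 peaked in other cells. The sequences are from RefSeq (GRCm38.p6), which matched 6 of the 9 genes. They run 5′ to 3′ on the gene's strand and end at the base before the start site. Cxcl9 is from chr5:92328080-92328329 (minus), Cxcl10 from chr5:92348890-92349139 (minus) and Cxcl1 from chr5:90890995-90891244 (plus). Capitals mark matches, on either strand, to the interferon-stimulated response element core GAAANNGAAA, the interferon-gamma activated site TTCNNNGAA or the NF-kB consensus.
Cxcl9: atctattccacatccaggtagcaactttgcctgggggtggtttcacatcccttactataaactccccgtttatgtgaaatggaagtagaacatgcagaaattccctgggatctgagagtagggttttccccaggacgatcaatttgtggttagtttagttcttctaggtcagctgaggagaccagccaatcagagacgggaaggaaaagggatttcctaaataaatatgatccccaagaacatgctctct
Cxcl10: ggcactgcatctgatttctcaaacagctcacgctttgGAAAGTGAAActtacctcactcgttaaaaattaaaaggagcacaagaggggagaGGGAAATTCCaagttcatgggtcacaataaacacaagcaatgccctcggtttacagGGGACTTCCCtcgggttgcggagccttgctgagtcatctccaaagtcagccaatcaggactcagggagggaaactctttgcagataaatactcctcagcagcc
Cxcl1: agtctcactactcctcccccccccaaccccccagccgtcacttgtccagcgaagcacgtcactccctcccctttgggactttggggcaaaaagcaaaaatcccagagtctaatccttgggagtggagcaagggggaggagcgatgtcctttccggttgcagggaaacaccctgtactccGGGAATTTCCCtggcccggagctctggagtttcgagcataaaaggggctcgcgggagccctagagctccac
The Cxcl10 window held 1 response element core, starting 213 bases before the start site, and 2 NF-kB matches, starting 159 and 103 bases before it. In the Cxcl1 window a single stretch matched NF-kB on both strands, in overlapping positions that start 71 and 70 bases before the start site. None of the 3 motifs occurred in the Cxcl9 window, which says only that these letters are absent from it. Among the windows not printed, Ccl19 held the same 10 letters of the response element core as Cxcl10. The RefSeq start site of Ccl19, however, lies inside the GENCODE gene given above, which ends at 42756577. Most of its window (chr4:42756366-42756615, minus), with this match, therefore lies within that gene and not upstream of it. Il6 held 1 NF-kB match starting 44 bases before its start site. Cxcl14 held the only activated site among the 6 windows, starting 191 bases before the start site, and a response element core starting 172 bases before it. Over all 32851 such windows, 2.98% held the response element core, 7.02% the activated site and 3.90% the NF-kB consensus.

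The interferon-induced pair was lower in the MSC STAT5 KO library. Cxcl9 stood at 101.2 CPM (95% Poisson interval 86.9 to 117.2) in MSC control, against 25.6 CPM (17.4 to 36.4) in the STAT5 KO library, from 178 and 31 UMIs. That is 25.3% of control, with an exact counting interval of 16.7 to 37.2%. Cxcl10 stood at 129.6 CPM (113.4 to 147.6) and 47.1 CPM (35.7 to 61.0), or 36.3% of control (26.7 to 48.8%). The intervals of the libraries did not overlap for either gene. Both genes were listed because of their fall in this contrast, and overlap was not counted over all genes, so nothing is read from it. All intervals here cover counting error only, and since UMIs of 1 cell are not independent draws from the library, they are narrower than the spread that other cells would give.

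A small number of cells carried most of this signal. A Cxcl9 UMI was found in 29 MSC control cells (5.01%, exact binomial interval 3.38 to 7.11%), and 1 of them held 61 of the 178 UMIs. The 5 highest cells held 74.7% of the UMIs. In MSC STAT5 KO 14 cells (3.70%, 2.04 to 6.14%) held one, with 6 UMIs in the highest cell and 58.1% in the highest 5. The shares of positive cells lay within each other's intervals, whereas mean UMIs per positive cell were 6.14 in control and 2.21 in STAT5 KO. The median per positive cell was 2 UMIs in both, so the means differed through a small number of high control cells. Cxcl10 was found in 32 cells of control (5.53%, 3.81 to 7.71%) and in 14 of STAT5 KO (3.70%, 2.04 to 6.14%). The highest of these cells held 38 of 228 and 22 of 57 UMIs. Without the highest cell of each library, the log2 ratio of STAT5 KO to control (pseudocount 10 CPM) was -1.32 for Cxcl9 and -1.60 for Cxcl10, against -1.64 and -1.29 with all cells.

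**Figure D1:**
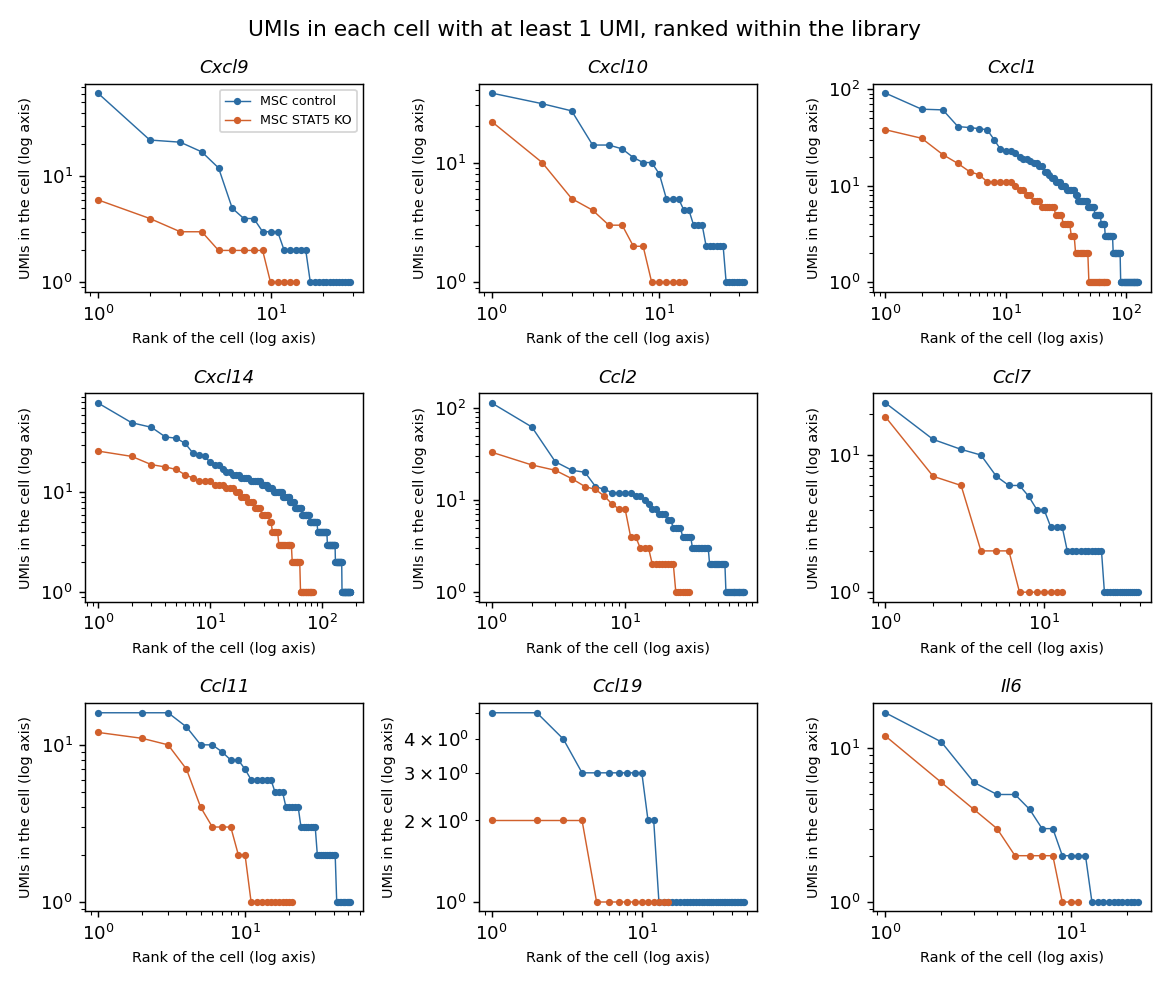
UMIs of each gene in every cell with at least 1 UMI (vertical log axis), with cells ranked from highest to lowest within MSC control (blue) and MSC STAT5 KO (orange, horizontal log axis). The highest Cxcl9 cell of control, at 61 UMIs, stands well above the highest of STAT5 KO, at 6 UMIs, while for Ccl7 the highest cells, at 24 and 19 UMIs, lie close together.

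The other CXC genes were found in far more cells. Cxcl1 stood at 614.1 CPM (578.0 to 651.8) in MSC control, against 315.7 CPM (284.8 to 349.0) in the STAT5 KO library, 51.4% of control (45.6 to 57.8%). Its UMIs lay in 125 and 69 cells, or 21.6% and 18.3% of the library. Cxcl14 stood at 747.7 CPM (707.8 to 789.2) and 394.2 CPM (359.6 to 431.2), 52.7% of control (47.4 to 58.6%). It was the member with most positive cells, 178 (30.7%, 27.0 to 34.7%) and 82 (21.7%, 17.6 to 26.2%). These 2 shares did not overlap in their counting intervals, but such overlap was not counted over all genes and nothing is read from it. After thinning of every cell to 600 UMIs the expected shares were 19.3% of 527 control cells and 12.5% of 341 STAT5 KO cells, with 52 and 37 shallower cells left out.

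The monocyte attractants of the chromosome 11 row were lower as well when all cells were summed. Ccl2 stood at 301.3 CPM (276.2 to 328.1) in MSC control, against 163.6 CPM (141.6 to 188.1) in the STAT5 KO library, 54.3% of control (45.9 to 64.0%). A single control cell held 113 of its 530 UMIs. Ccl7 stood at 76.8 CPM (64.4 to 90.8) and 37.2 CPM (27.1 to 49.8), 48.5% of control (33.8 to 68.4%), and in STAT5 KO 1 cell held 19 of 45 UMIs. Ccl11, the eosinophil attractant, stood at 131.9 CPM (115.5 to 150.0) and 56.2 CPM (43.6 to 71.2), 42.6% of control (32.0 to 56.0%). It was spread more evenly in control, where 52 cells held it and the highest held 16 of 232 UMIs. In STAT5 KO 21 cells held it.

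Ccl19, the ligand of CCR7, stood at 42.6 CPM (33.5 to 53.5) in MSC control, against 15.7 CPM (9.45 to 24.5) in the STAT5 KO library, 36.8% of control (21.0 to 61.6%). No cell held more than 5 of its 75 control UMIs or more than 2 of its 19 STAT5 KO UMIs, so no single cell set its level. Il6 stood at 41.5 CPM (32.5 to 52.2) and 29.8 CPM (20.8 to 41.2), 71.7% of control, with an interval of 46.7 to 108.3% that includes 100%. A difference in Il6 was thus not detectable at this depth. It lay in 23 control and 11 STAT5 KO cells.

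**Figure D2:**
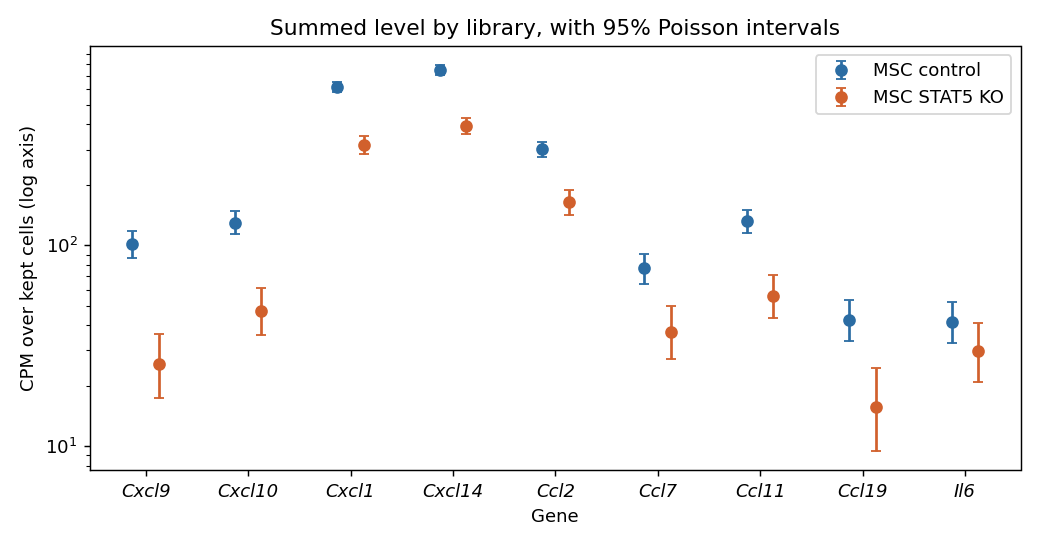
Summed level of the 9 genes in MSC control (blue) and MSC STAT5 KO (orange) as CPM on a log axis, with 95% Poisson intervals for counting error. Every STAT5 KO point lies below its control point, and the intervals overlap only for Il6. Over all 10163 genes tested 56.7% were lower, and overlap of intervals was not counted over them. The contrast helped to choose the members, so nothing is read from these counts.

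All 9 genes passed a minimum of 20 UMIs over both MSC libraries. All were lower in STAT5 KO, as were 56.7% of all genes that passed it. By a threshold of at least 2-fold (log2 ratio with a pseudocount of 10 CPM of -1 or less), 4 of the 9 were lower: Cxcl9, Cxcl10, Ccl11 and Ccl19. Over all 10163 genes with that many UMIs, 0.669% were lower and 1.43% were higher by this threshold. Because the contrast helped to choose the genes, nothing is read from their count. Just inside the threshold lay Ccl19 at -1.03, and just outside it Cxcl1 at -0.94. The median log2 ratio was -0.94 over the 9 genes and -0.05 over all genes tested.

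What the libraries contained moved with these values. Chondrocyte-like cells, 6 in control and 25 in STAT5 KO, held 3.81% of the control UMIs and 24.3% of the STAT5 KO UMIs, at medians of 11244 and 11460 UMIs per cell. All 12 chondrocyte markers were higher in STAT5 KO, none at 0 in either library, with summed levels of 7823 and 28343 CPM. Of the 10 markers of CXCL12-abundant stromal cells, 9 were lower and none was at 0, with summed levels of 10957 and 7272 CPM. The 10 erythroid markers were lower too, 1 of them at 0 in STAT5 KO, with summed levels of 31908 and 15110 CPM. Erythroid-like cells, however, were 21.8% of control and 25.7% of STAT5 KO cells, and held 7.26% and 6.28% of the UMIs. The part of these shifts in the members' values was not tested beyond the alternatives that follow, which were chosen after the data were seen in the case of the chondrocyte-like cluster. Without the chondrocyte-like cluster, the log2 ratio of Cxcl9 was -1.39, Cxcl10 was still at least 2-fold lower, and Cxcl1, Cxcl14 and Ccl2 were at -0.68, -0.62 and -0.52. When the clusters of STAT5 KO counted by their shares in control, Cxcl9 was at -1.30 and was the only member at least 2-fold lower, Cxcl10 was at -0.89, Ccl2 at -0.37 and Il6 at -0.0016. Barcodes present in both MSC libraries bore on the values too. With all of them left out, Cxcl9 and Cxcl10 were the members still at least 2-fold lower, at -1.45 and -1.09.

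The clusters, formed without the 9 genes, showed where in the stroma each gene was held. CXCL12-abundant stromal-like cells, led by Hp, Adipoq, Esm1, Cxcl12 and Kitl among others, held 96.2% of all Cxcl9 UMIs, 82.5% of Cxcl10, 87.2% of Ccl19, 72.0% of Cxcl14, 68.0% of Ccl2 and 52.8% of Ccl7. Ccl11 was almost absent from them, with 3 of its 300 UMIs. Its UMIs lay in a cluster led by Gpc3 and Mmp3 (55.7%) and in a cluster led by Pi16 and Has1 (39.0%), neither of which met the marker rule for a name. The Pi16 cluster held more Cxcl1 UMIs than any other (46.4%). For Il6 the leading cluster differed between the libraries. In control, pericyte/smooth muscle-like cells held 46.6% of the Il6 UMIs and the Pi16 cluster 30.1%. In STAT5 KO, with 3 pericyte-like cells against 18, the Pi16 cluster held 72.2%. The control pericyte-like UMIs, 34 in all, lay in 4 cells, and 1 of these held 17. Without that cell 17 UMIs remained, fewer than the 22 of the Pi16 cluster, so the leading cluster of control rested on 1 cell.

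**Figure D3:**
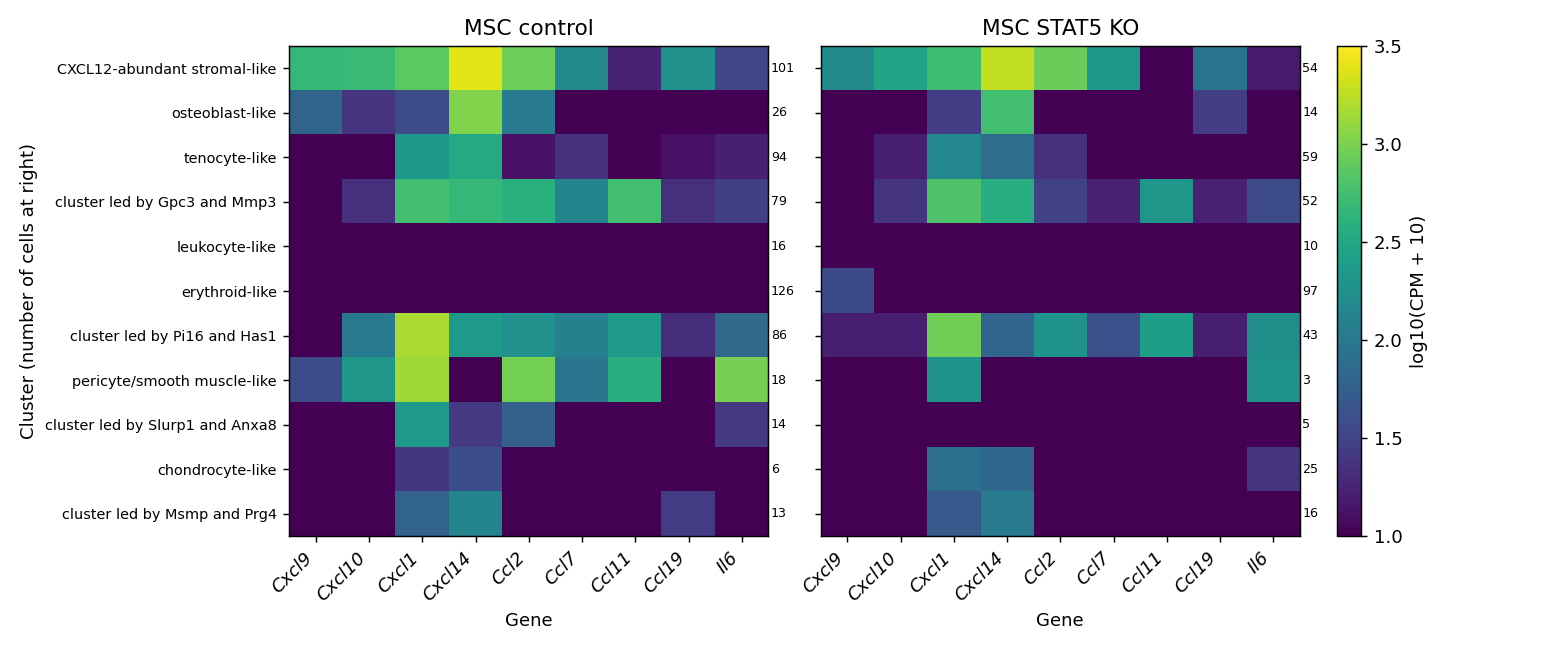
Level of the 9 genes in each cluster of MSC control (left) and MSC STAT5 KO (right), as log10(CPM + 10), with the number of cells at the right of each row. Cxcl9, Cxcl10, Cxcl14 and Ccl19 are brightest in the CXCL12-abundant stromal-like row, Ccl11 in the row led by Gpc3 for control and in the row led by Pi16 for STAT5 KO, and the leukocyte-like row is dark for every gene.

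Transcripts from blood cells of the sort contributed next to nothing. The leukocyte-like cluster, with 16 and 10 cells, held 0 UMIs of each of the 9 genes. The erythroid-like cluster, at median depths of 649 and 633 UMIs, held 2 UMIs of Cxcl9 in 1 STAT5 KO cell and none of the other genes. Counts of 0 allow shares of positive cells of up to 2.38% of the 126 control and 3.09% of the 97 STAT5 KO erythroid-like cells. These shares serve as the background for free RNA at that depth.

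Within CXCL12-abundant stromal-like cells, 101 in control and 54 in STAT5 KO, the genes parted. Cxcl9 stood at 457.0 (control) and 146.9 (STAT5 KO) CPM, 32.2% of control (20.8 to 48.1%), with positive cells at 26.7% and 22.2%. Cxcl10 stood at 480.8 and 278.1 CPM, 57.8% of control (41.8 to 78.9%), with positive cells at 18.8% and 20.4%. Median UMIs per positive cell were 2 in both libraries for Cxcl9, and 4 and 3 for Cxcl10. Without the highest control cell Cxcl9 was at 49.1% of control (31.2 to 74.8%) and Cxcl10 at 72.0% (51.5 to 99.3%). Without the highest STAT5 KO cell Cxcl9 was at 25.7% (15.7 to 40.2%) and Cxcl10 at 34.7% (22.9 to 51.0%). Ccl19 stood at 174.3 and 84.0 CPM, 48.2% of control (26.0 to 84.1%), and here the share of positive cells was 38.6% and 22.2%. Cxcl14 stood at 2475 and 1858 CPM, 75.0% of control (66.2 to 84.9%), and was found in 88.1% and 88.9% of the cells. Cxcl1 stood at 723.8 and 524.8 CPM, 72.5% of control (57.1 to 91.5%). Without its highest control cell that became 92.1% (71.9 to 117.4%), which includes 100%. Without its highest STAT5 KO cell it was 51.3% (38.8 to 67.0%), and without the highest cell of each library 65.2% (48.9 to 85.9%).

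For the CCR2 ligands the counting intervals in these cells included 100%, and single cells set the direction. Ccl2 stood at 874.4 (control) and 860.6 (STAT5 KO) CPM, 98.4% of control (81.1 to 119.0%). There 1 control cell held 113 of 331 UMIs, and without it STAT5 KO was at 146.9% of control (119.2 to 180.7%). Without the highest cell of each library it was at 120.3% (96.1 to 150.1%), while the share of positive cells was 47.5% in control and 35.2% in STAT5 KO. Ccl7 stood at 147.9 and 204.7 CPM, 138.3% of control, with an interval of 89.5 to 211.9% that includes 100%, and at 73.2% (41.6 to 124.0%) without the highest STAT5 KO cell. In the cluster led by Gpc3 and Mmp3, by contrast, Ccl2 was at 372.4 CPM in 79 control cells and 20.9 CPM in 52 STAT5 KO cells, where 1 control cell held 62 of 94 UMIs. Ccl7 in that cluster was at 122.8 and 6.97 CPM, and 1 control cell held 24 of 31 UMIs. For both genes 1 control cell thus held most of the control UMIs of that cluster. Without the highest control cell Ccl2 there was still at 16.2% of control (3.18 to 51.8%), from 32 and 3 UMIs. Ccl7 was at 24.7% (0.548 to 192.2%), from 7 and 1 UMIs, an interval that includes 100%. Among the 9 genes, 7 had at least 20 UMIs in the CXCL12-abundant cells, and of these only Cxcl9 was at least 2-fold lower. Over all 4693 genes that passed in these cells 2.96% were lower and 2.07% were higher by that threshold. The place of Cxcl9 past the threshold leaned on 1 control cell with 61 of 173 UMIs. Without it the ratio without a pseudocount was 49.1% of control (31.2 to 74.8%), at the edge of 2-fold.

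The other stromal clusters differed from gene to gene. Ccl11 in the Gpc3 cluster was at 546.8 (control) and 202.3 (STAT5 KO) CPM, 37.0% of control (23.9 to 55.5%), while in the Pi16 cluster it was at 221.2 and 242.7 CPM, 109.7% of control (72.7 to 163.2%). Cxcl1 was at 554.7 and 627.7 CPM in the Gpc3 cluster, 113.2% of control (85.9 to 148.5%), or 67.5% (48.1 to 93.4%) without the highest STAT5 KO cell. It was at 128.7% (96.8 to 170.6%) without the highest control cell and at 76.7% (54.3 to 107.1%) without the highest cell of each library. In the Pi16 cluster it was at 1517 and 896.2 CPM, 59.1% of control (48.8 to 71.1%). In the Pi16 cluster the share of cells with a Cxcl1 UMI was 53.5% in both libraries. Il6 in that cluster was at 62.4 CPM from 22 UMIs in 11 cells and 161.8 CPM from 26 UMIs in 6 cells, 259.4% of control (141.3 to 480.1%), and 1 STAT5 KO cell held 12 of those UMIs. Without it Il6 was at 141.6% (67.0 to 289.4%), and the interval includes 100%. Cxcl14 in tenocyte-like cells was at 329.4 CPM in 36 of 94 control cells and at 68.8 CPM in 7 of 59 STAT5 KO cells, 20.9% of control (10.1 to 39.0%). Whether these differences between clusters exceed those between mice was not tested.

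Cells with several members were counted without a correction for cell type. Of the 29 control cells with a Cxcl9 UMI, 26 also held Cxcl14, 18 held Ccl19 and 10 held Cxcl10. Of all control cells 30.7% held Cxcl14, 8.29% Ccl19 and 5.53% Cxcl10. As 27 of these 29 cells were CXCL12-abundant stromal-like, a class in which 88.1% of control cells held Cxcl14, the sharing with Cxcl14 was close to that of the class. In STAT5 KO 13 of 14 held Cxcl14 and 5 held Ccl19. Of the 39 control cells with Ccl7, 27 held Cxcl1 and 21 held Ccl2, against 21.6% and 13.5% of all control cells. In all, 303 control cells (52.3%) and 238 STAT5 KO cells (63.0%) held no UMI of any member, and 20 and 7 cells held 5 or more members. The highest correlation between members over the 957 kept cells was that of Ccl2 with Ccl7 (Pearson r 0.46 on log counts per 10000), followed by Cxcl9 with Ccl19 (0.42). Cells of both libraries share depth and cell type, so these values are descriptions.

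The genes most like each member were sought over the same 957 cells among 4408 genes. For Cxcl9 they were Iigp1, an interferon-inducible GTPase (r 0.46), Adipoq, which encodes adiponectin (0.44), and Hp, which encodes haptoglobin (0.40). For Cxcl10 they were Iigp1 (0.37), Adipoq (0.35) and Serpina3g (0.32). Cxcl14 had the closest partners, Esm1 (0.73), the niche chemokine Cxcl12 (0.72) and Hp (0.69), and Ccl19 followed Adipoq (0.48), Gdpd2 (0.47) and Esm1 (0.45). Cxcl1 followed the protease gene Adamts1 (0.44) and the metallothionein genes Mt2 (0.44) and Mt1 (0.44). Ccl2 followed Ptx3 (0.43), a secreted pattern recognition protein, Adamts1 (0.42) and Hp (0.41). For Ccl7 they were Ptx3 (0.32), Adamts1 (0.32) and Hmox1 (0.29), for Ccl11 Smoc2 (0.53), Gpc3 (0.48) and Entpd2 (0.48), and for Il6 Sbno2 (0.31), Mt1 (0.25) and Gdf15 (0.25).

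The G protein-coupled receptors of these chemokines held few or no UMIs in the stromal sort, unlike gp130 and some atypical receptors. Cxcr3, Ccr2 and Ccr3 held 0 UMIs in both MSC libraries, Cxcr2 held 1 and 4 UMIs and Ccr7 10 and 4. In KLS cells Ccr2 stood at 2.97 (control) and 6.45 (STAT5 KO) CPM, Cxcr2 at 5.90 and 6.91 CPM, Ccr7 at 2.29 and 1.39 CPM, Ccr3 at 0.590 and 0.524 CPM and Cxcr3 at 0.258 and 0.219 CPM. Il6st, which encodes gp130, was at 230.3 and 166.1 CPM in MSC, and Il6ra at 22.2 and 22.3 CPM. Of the atypical receptors, which take up chemokines without classical signalling, Ackr4, which binds CCL19, held 111 and 46 UMIs, and in CXCL12-abundant stromal-like cells it was at 251.0 and 199.4 CPM. Ackr1, which binds many inflammatory chemokines, held 40 and 11 UMIs. These atypical receptors were named after their values were seen.

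Related gene lists in the MSC libraries were described by counts. Among 25 other chemokine ligands, 7 passed 20 UMIs, 1 at least 2-fold lower and 1 higher in STAT5 KO. The first was Cxcl5, which draws neutrophils, at 11.9 and 0.826 CPM from 21 and 1 UMIs, 6.92% of control (0.167 to 43.0%). The second was Cxcl13, which draws B cells, at 6.25 and 24.8 CPM from 11 and 30 UMIs. Among 5 chemokine receptors, 10 genes of the IL-6 family, 28 interferon response genes, 25 NF-kB response genes and 14 immediate early genes that passed, none was past 2-fold in either direction. The interferon response list had a median log2 ratio of -0.28 with 20 of 28 genes lower, against a median of -0.05 and 56.7% of genes lower over all. In CXCL12-abundant stromal-like cells 20 of its 22 passing genes were lower and 3 were at least 2-fold lower, with a median of -0.44. Over all genes there 2.96% were at least 2-fold lower, 52.1% were lower at all and the median was -0.01. The NF-kB list had a median of 0.06 with 11 of 25 lower, and the immediate early list, whose genes are known to respond to tissue dissociation, had a median of 0.20 with 4 of 14 lower.

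The blood progenitors held little of any member. In KLS cells, 3190 in control and 7163 in STAT5 KO, Cxcl10 stood at 3.63 CPM (3.14 to 4.18) in control, against 4.62 CPM (4.17 to 5.11) in STAT5 KO, and 1 STAT5 KO cell held 165 of its 379 UMIs. Without that cell STAT5 KO was at 2.61 CPM, below control, and positive cells were 1.85% of control and 1.20% of STAT5 KO. Cxcl9 stood at 0.959 and 1.12 CPM, 1 control cell held 40 of 52 UMIs, and without it control was at 0.221 CPM. In STAT5 KO 1 cell held 31 of 92 Cxcl9 UMIs. With only that cell left out STAT5 KO was at 0.744 CPM, 77.5% of control (52.7 to 114.5%), so single cells set the direction. Ccl2 was at 0.240 and 0.475 CPM and Il6 at 0.369 and 0.292 CPM. Ccl7 and Ccl11 were at 0 UMIs in both, where 3 counts would be 0.055 (control) and 0.037 (STAT5 KO) CPM, and Cxcl1, Cxcl14 and Ccl19 held 0 UMIs in control and 5, 3 and 1 in STAT5 KO.

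**Figure D4:**
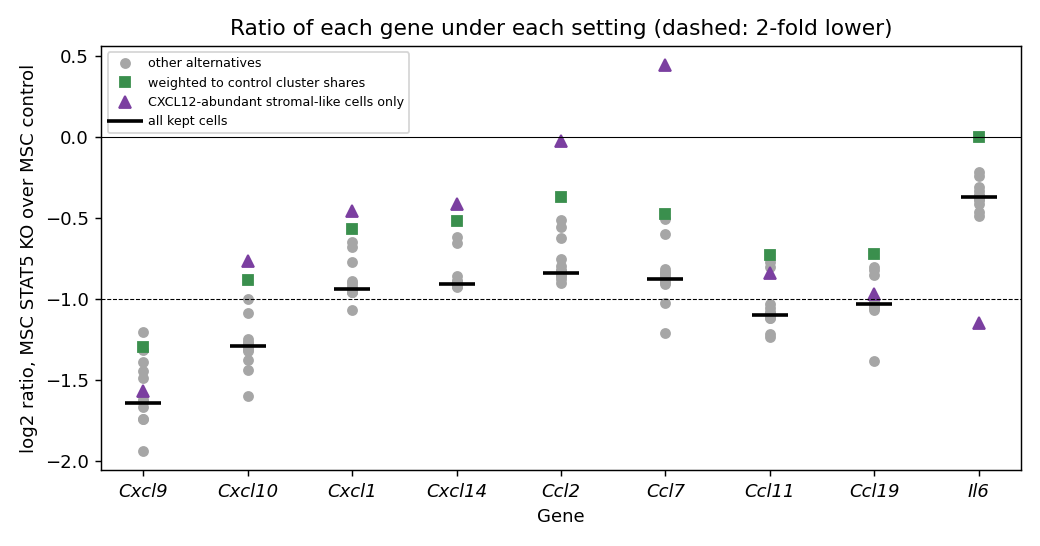
Log2 ratio of MSC STAT5 KO to MSC control (vertical axis, pseudocount 10 CPM unless the setting changes it) for each gene, over all kept cells (bar), with STAT5 KO clusters counted by their control shares (square), in CXCL12-abundant stromal-like cells alone (triangle) and under the other settings (grey points). Cxcl9 lies below the dashed 2-fold line throughout, while Ccl2 and Ccl7 reach -0.02 and 0.44 in the CXCL12-abundant cells.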

How the data were processed

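The authors deposited raw UMI counts per gene and cell barcode for 4 libraries, with no normalization. Cell Ranger and the build GRCm38 (mm10) are named per the submitters' processing notes, and the matrix headers name software version 3.1.0. Cell calling and the strand rule are not given in the sources used here. An MSC barcode counted as a cell with 200 or more genes detected and no more than 10% of UMIs mitochondrial, without the highest Scrublet scores (4 control and 1 STAT5 KO barcodes, scanpy 1.11.5) and without barcodes that hold more UMIs in the other MSC library. KLS cells passed the same filter on genes and mitochondrial UMIs, without barcodes higher in any other library and with no doublet step. No correction for free RNA was made. Counts were summed over cells and scaled to CPM. Sums carry exact Poisson, shares Clopper-Pearson and ratios conditional binomial 95% intervals. No p-value was computed.

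For clustering, log counts per 10000 of the 2000 most variable genes were taken, leaving out the members, mitochondrial and sex-linked genes, Stat5a and Stat5b. Leiden clustering (resolution 1, igraph 0.11.9) then ran on 15 nearest neighbours in 30 components. A name needed 3 fixed markers among the 10 leading genes. The named genes were the members, the related genes past 2-fold (at most 4 per list and direction), the members' receptors and the 3 genes of highest Pearson r with each member. Some genes are named because they encode sort markers, deleted genes or niche signals. The members and lists were chosen with earlier results of these data known. On simulated counts (10168 genes run, 200 changed 4-fold) 100% of the changed genes came out in the right direction, and 95.8% of the intervals of 500 unchanged genes held the true ratio. This checks the calculation. It does not show how the intervals fare where 1 cell holds many UMIs of a gene, as for Cxcl9, nor how they compare with the spread between mice. Alternatives changed the cell filter, shared barcodes, doublets, cells summed, scaling (including edgeR 4.0.16 TMM factors), pseudocount, clustering resolution and thinning. Expected shares after thinning were computed exactly, without random draws.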

Additional observations from a re-analysis of the deposited data

Results flagged for a closer look

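For 2 members the STAT5 KO library was lower than control in the MSC sort and higher in the KLS sort, with both counting intervals clear of 100%. For Cxcl10, however, the KLS direction rested on 1 cell. Only Cxcl9, Cxcl10, Ccl2 and Il6 held UMIs in both KLS libraries and could meet this rule. The rule was not counted over all genes, and the MSC side helped to choose the members, so nothing is read from the count. Cxcl10 was at 36.3% of control in MSC cells and at 127.1% (106.7 to 151.7%) in KLS cells, where 1 cell held 165 of 379 STAT5 KO UMIs. Without that cell it was at 71.8% (58.9 to 87.6%), and without the highest cell of each library at 87.8% (71.2 to 108.4%). The share of KLS cells with a Cxcl10 UMI was 1.85% in control and 1.20% in STAT5 KO. Ccl2 was at 54.3% of control in MSC cells and at 198.2% (103.6 to 404.6%) in KLS cells, from 13 and 39 UMIs. Without the highest STAT5 KO cell Ccl2 was at 167.7%, with an interval of 86.0 to 347.3% that includes 100%. Without the highest cell of each KLS library it was at 218.0% (104.9 to 495.9%). On the MSC side, CXCL12-abundant stromal-like cells held 68.0% of the Ccl2 UMIs, and there Ccl2 was at 98.4% of control (81.1 to 119.0%). The difference between the sorts was not tested, since each group is 1 library.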

How the results depend on the processing

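No paired analysis was possible because each group is 1 library and the labels carry no replicate numbers. For 9 genes under 15 alternatives, 2 of them chosen after the data were seen, there were 135 log2 ratios. Of these, 120 were labelled as unchanged and 14 as moved. The remaining 1 changed sign, that of Ccl7 at 0.44 in CXCL12-abundant stromal-like cells. The labels do not follow the intervals printed above, which are those of ratios without a pseudocount. Cxcl9 at -1.20 and Cxcl10 at -0.89 were labelled as unchanged, though those intervals end at log2 ratios of -1.43 and -1.04. The 120 are thus not a count of values within the printed intervals. Cxcl9 stayed at least 2-fold lower under all 15 alternatives (-1.94 to -1.20), and Cxcl10 under 13 of them (-1.60 to -0.77). Those 15 do not include the CXCL12-abundant cells without their highest control cell, where Cxcl9 was at 49.1% of control (31.2 to 74.8%). The count of 4 members at least 2-fold lower became 2 with every barcode of both MSC libraries left out, 1 with STAT5 KO clusters counted by their control shares, 2 without the chondrocyte-like cluster and 2 in the CXCL12-abundant cells, of which Il6 (-1.15) rests on 9 and 1 UMIs, under the minimum of 20. It lay between 3 and 5 under the other alternatives. Among genes with at least 100 UMIs, 1.03% were lower and 1.75% higher by 2-fold. Leaving out the highest cell within a class was added after the data were seen: Cxcl10 in KLS turned from 127.1% of control to 71.8% without the highest STAT5 KO cell and to 87.8% without the highest cell of each library. At Leiden resolution 0.5 the share of UMIs in CXCL12-abundant stromal-like cells was 98.1% for Cxcl9 and 77.8% for Cxcl14. At resolution 2 no cluster took that name, so no share is given. Unthinned, the difference in the share of positive cells for Ccl19 was -4.32 percentage points, against -1.13 thinned. Thinning lowered both shares, from 8.29% (control) and 3.97% (STAT5 KO) to 2.01% and 0.879%, so the gap in points shrank with them. Levels within small clusters, such as the 3 STAT5 KO pericyte-like cells, are limited by depth.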
